A study of Homo sapiens with 6 samples.

Results

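The genes described here are 56 genes of human chromosome 20 that share a chromosome and no common function. They lie along both of its arms, 31 on the short arm (20p) and 25 on the long arm (20q). They were given by symbol, with the differences between the groups of this study already known, so the group differences below describe them and test nothing about them. Each gene was read by its brightest probe set by the mean of 6 arrays. CRNKL1, a splicing factor gene of 20p, is not analysed here, since no probe set carries its name in the annotation used. The other 55 (30 on 20p, 25 on 20q) all passed the filter on dim probe sets, out of 351 chromosome 20 genes and 12151 genes of all chromosomes that did.

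RNA came from HSC-3, an established cell line of a human tongue squamous cell carcinoma, on Affymetrix oligonucleotide arrays. There were 3 arrays of cells transfected to overexpress trypsin-2, the serine protease encoded by PRSS2 (TAT-2 in the labels), and 3 of cells transfected with a control vector, which per the labels make no trypsin-2. Both lines were cultured for 48 h in the same serum-containing medium with hydrocortisone. The labels do not say whether each line was a single clone or a pool, or whether replicates were separate cultures, so p-values below measure only the spread between these arrays, which may be technical.

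Neighbouring genes on a human chromosome mostly have promoters of their own and often unrelated functions. Carcinoma lines often carry gains or losses of whole chromosome arms, and in such lines the RNA level of many genes in the affected stretch tends to follow their copy number. Gain of 20q is well known in epithelial tumours, where ZNF217, BCL2L1 and CSE1L are among its candidate drivers. The arrays measured RNA, and no DNA copy number was measured here.

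The PRSS2 signal did not follow the labels, nearly equal in replicate 1 and lower on TAT-2 in replicates 2 and 3. Its brightest probe set gave 20.4, 13.8 and 14.6 on replicates 1, 2 and 3 labelled TAT-2, and 19.6, 80.8 and 83.2 on those labelled vector. That probe set ends in _x_at and can also read related sequences. Whether it reads the transfected gene was not tested. Every direction below therefore rests on the labels, and "TAT-2 arrays" means the arrays labelled so. The first principal component (45.6% of the variance) set replicate 1 of both groups apart from the 4 remaining arrays. For ACTB, the log2 ratio of the 3' over the 5' control probe set was 0.21 and 0.25 on these and 0.46 to 0.59 on the rest. Of the markers of squamous epithelium, 4 of 7 had a probe set of their own (KRT5, KRT14, CDH1 and EPCAM), with a summed signal of 12907 to 15075 on the TAT-2 arrays and 11071 to 16687 on the vector arrays. KRT5 and KRT14 had higher means on the TAT-2 arrays, and CDH1 and EPCAM were lower in all 3 replicate numbers. Fibroblast markers summed to 131 to 137 and 112 to 136, leukocyte markers to 33.0 to 96.7 and 36.2 to 60.8, and endothelial markers to 37.5 to 49.5 and 38.7 to 42.4. Of these last 3 lists 4 of 13 measured markers passed the filter (COL1A1, DCN, CD14 and PECAM1), and PDGFRB, PTPRC and CDH5 were near 0. The part of these measures in the results below was not tested.

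Genes of 20p were lower on the TAT-2 arrays along the whole arm. Signals are MAS5 signals on a linear scale, and differences are of log2(signal + 16), TAT-2 minus vector, which understates the change of dim probe sets. Of the 30 measured 20p members 29 had a lower mean, where 50.5% of all genes tested did. The median difference of the 30 was -0.35 (quartiles -0.42 and -0.31), which is 1.28-fold lower in signal + 16. The median was -0.36, -0.38 and -0.33 when arrays were matched by replicate number 1, 2 and 3. Over all 12151 genes tested the median was -0.00, with quartiles of -0.13 and 0.13.

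In 28 of the 30 members of 20p the TAT-2 array was lower within all 3 replicate numbers, where 21.1% of all genes tested were. In 20 the groups did not overlap, with every TAT-2 array below every vector array, against 7.83% of all genes in that direction and 7.87% in the other, which no member took. With the replicate number as a block, limma called 21 of them lower, against 3.46% of all genes, and none higher, against 3.5%. Every blocked call, members included, was lost when the intensity trend was left out of that fit (0 of 12151 genes called). Without the block it called none of the 55 members and 7 genes in all (0.0576%), with 1140 genes at an unadjusted p under 0.05. The members were chosen on this contrast, so these counts support nothing further. In bulk RNA, fewer cells with a transcript and less of it per cell cannot be told apart.

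**Figure D1:**
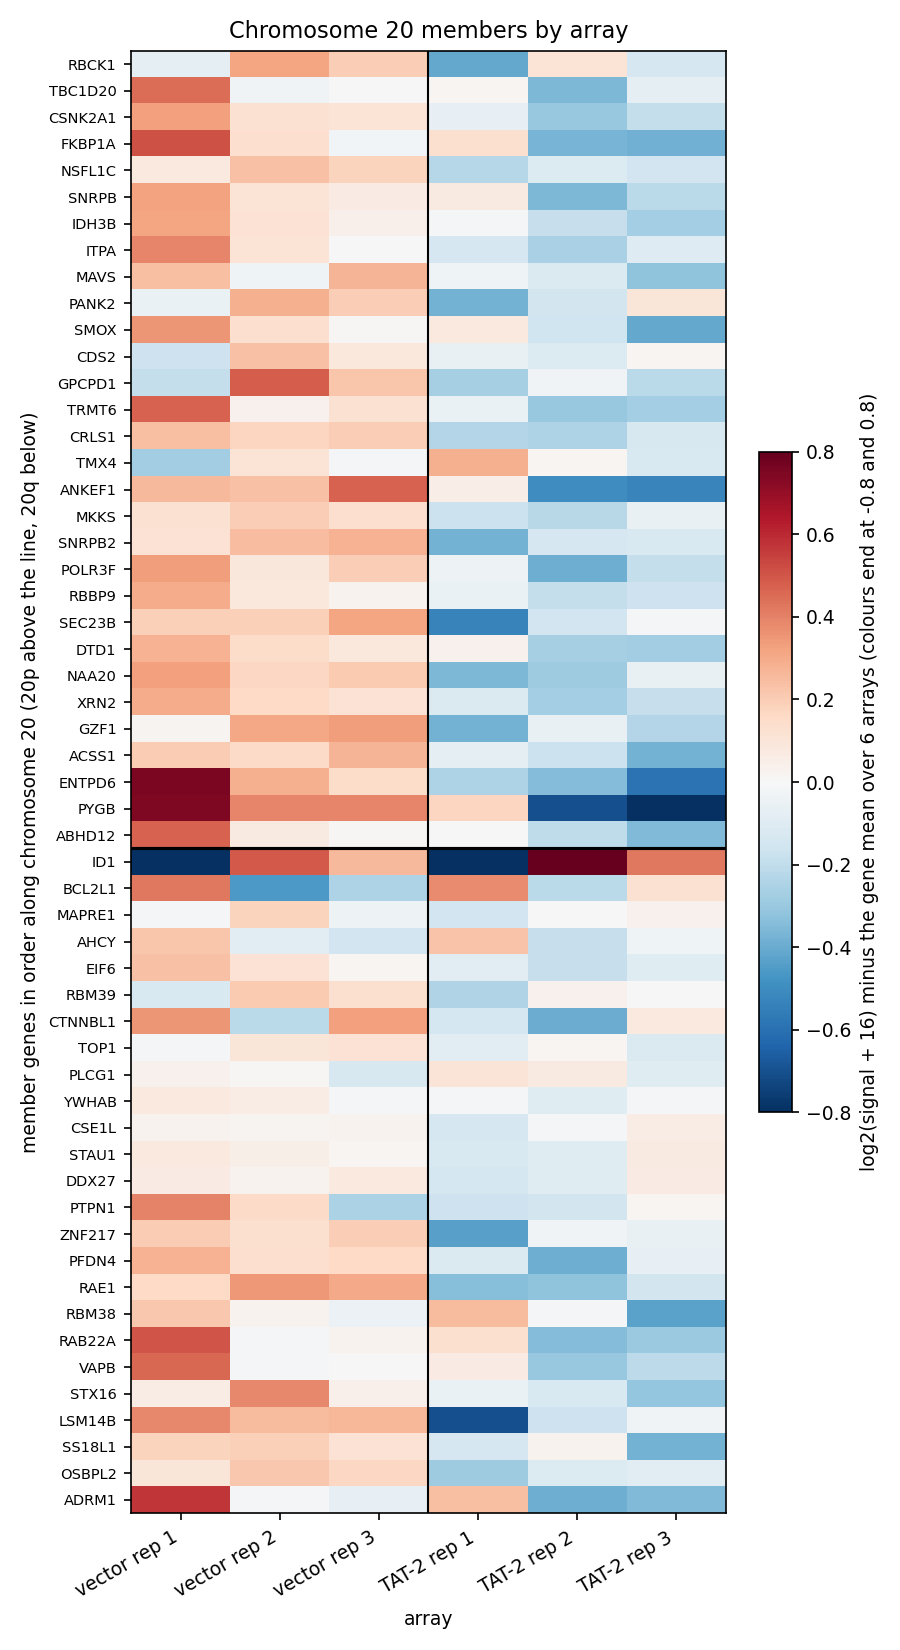
Log2(signal + 16) of each of the 55 measured members (rows, in order along chromosome 20) on each of the 6 arrays (columns), minus the gene's mean over the 6 arrays; colours end at -0.8 and 0.8. Rows of 20p, above the line, are mostly red on the 3 vector arrays and blue on the 3 TAT-2 arrays, and rows of 20q just below the line are not.

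The greatest differences of 20p lay near the centromere, at PYGB and ENTPD6, neighbours in the gene order. PYGB, the brain form of glycogen phosphorylase, gave 118, 57.2 and 43.8 on TAT-2 replicates 1, 2 and 3, and 183, 140.0 and 140.2 on the vector arrays. The groups did not overlap, and the mean difference was -1.02 ± 0.41 (SD over the 3 replicate numbers, as for all differences below). ENTPD6, a nucleoside diphosphatase and the next gene toward the tip, gave 75.3, 69.1 and 55.7 against 166, 116 and 103.5. Again every TAT-2 array lay below every vector array, with a difference of -0.79 ± 0.19. ABHD12, a lysophospholipid lipase on the other side of PYGB, gave 283, 243 and 218 against 396, 297 and 283, a difference of -0.37 ± 0.10. Its highest TAT-2 array and lowest vector array were nearly equal, and the groups were apart by that margin. The only other PYGB probe set lay below the filter, and when probe sets ending in _x_at or _s_at were left out it stood for PYGB with a difference of 0.13. Averaged over their probe sets, PYGB was at -0.44 and ENTPD6 at -0.26, where the other ENTPD6 probe sets, both below the filter, were at 0.06 and -0.05.

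The promoter windows of PYGB and ENTPD6, the 2 members with the greatest difference, are set beside those of RAE1, one of the 20q members with the lowest mean difference, and BCL2L1, the 20q member with the highest mean difference. Each window runs from 250 bases before to 50 after a RefSeq gene start in GRCh38.p14. Capitals mark the GC box GGGCGG on either strand, which overlapping copies can share.
PYGB, chr20:25247835-25248134, plus strand: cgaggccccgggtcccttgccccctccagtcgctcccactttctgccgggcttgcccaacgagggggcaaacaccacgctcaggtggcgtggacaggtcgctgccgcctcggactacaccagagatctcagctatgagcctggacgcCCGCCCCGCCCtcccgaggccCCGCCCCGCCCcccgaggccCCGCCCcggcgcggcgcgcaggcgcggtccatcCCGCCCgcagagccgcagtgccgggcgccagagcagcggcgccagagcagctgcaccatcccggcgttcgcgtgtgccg
ENTPD6, chr20:25195462-25195761, plus strand: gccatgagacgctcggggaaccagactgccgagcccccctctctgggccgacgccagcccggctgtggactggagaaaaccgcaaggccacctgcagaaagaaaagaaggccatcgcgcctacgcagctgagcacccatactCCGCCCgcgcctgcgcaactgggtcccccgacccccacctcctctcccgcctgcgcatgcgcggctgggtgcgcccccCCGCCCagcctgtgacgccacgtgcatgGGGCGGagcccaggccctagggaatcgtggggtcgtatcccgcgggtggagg
RAE1, chr20:57351292-57351591, plus strand: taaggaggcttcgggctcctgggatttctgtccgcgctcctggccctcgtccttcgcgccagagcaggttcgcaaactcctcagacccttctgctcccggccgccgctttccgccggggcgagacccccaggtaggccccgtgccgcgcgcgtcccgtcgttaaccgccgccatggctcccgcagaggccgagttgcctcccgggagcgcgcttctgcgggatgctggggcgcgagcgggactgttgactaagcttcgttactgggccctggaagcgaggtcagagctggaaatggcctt
BCL2L1, chr20:31722819-31723118, minus strand: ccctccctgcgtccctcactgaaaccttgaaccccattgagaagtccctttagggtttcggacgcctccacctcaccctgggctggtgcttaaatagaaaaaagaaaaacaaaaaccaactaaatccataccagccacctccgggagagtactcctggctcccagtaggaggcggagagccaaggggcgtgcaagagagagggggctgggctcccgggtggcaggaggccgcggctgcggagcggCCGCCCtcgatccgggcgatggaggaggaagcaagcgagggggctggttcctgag
PYGB held 6 such matches, ENTPD6 3, BCL2L1 1 and RAE1 none. CCAAT and the ETS core CCGGAAG, searched on both strands, had no match in these 4 windows.

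Windows were found for 52 of the 56 genes. GGGCGG was present in 16 of 28 windows of 20p (57.1%) and 21 of 24 of 20q (87.5%), against 43.8% of 27305 promoters of the same length. CCGGAAG was present in 35.7% of 20p windows and 16.7% of 20q windows, against 10.6% of all. CCAAT was present in 28.6% and 45.8%, against 35.6%. TATAAA was present in 7.14% and 8.33%, against 12.1%, the E-box CACGTG in 17.9% and 4.17%, against 7.27%, and the AP-1 letters TGANTCA in 3.57% and 4.17%, against 7.91%. The median number of CpG pairs was 24.5 on 20p and 32.0 on 20q, against 13.0 over all promoters. A match of letters is a description and not a binding site.

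At the tip of 20p, RBCK1, a subunit of the linear ubiquitin chain assembly complex, gave 346, 502 and 424 on the TAT-2 arrays and 440 (439.9), 584 and 536 on the vector arrays. The groups overlapped because replicate 1 was low in both, yet each TAT-2 array lay below its own number, by -0.29 ± 0.07 on average. TBC1D20, an activator of Rab GTPase hydrolysis, gave 108, 79.6 and 101 against 151, 104 and 106, with groups that overlapped and a difference of -0.28 ± 0.19. CSNK2A1, the catalytic subunit of protein kinase CK2, followed with 635, 538 and 582 against 840 (839.5), 728 and 722, with no overlap and a difference of -0.37 ± 0.06.

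Further toward the centromere 3 members differed by more than most. They were ANKEF1, SEC23B and NAA20, at ranks 63, 87 and 92 from the tip among the 114 tested 20p genes. The brightest and the dimmest member, given after them, were at ranks 19 and 107. ANKEF1, an ankyrin and EF-hand protein, gave 68.5, 41.9 and 40.7 on the TAT-2 arrays and 81.8, 80.2 and 97.3 on the vector arrays. Its groups did not overlap, but its difference was -0.21 in replicate 1 and -0.73 in replicate 2 (mean of all 3 -0.65 ± 0.40). NAA20, the catalytic subunit of an N-terminal acetyltransferase, gave 958, 1011 and 1185 against 1551, 1390.1 and 1431, with no overlap (-0.47 ± 0.21). SEC23B, a coat protein of vesicles leaving the endoplasmic reticulum, gave 470 (469.7), 617 and 682 against 788, 786 and 860 (859.5), also with no overlap (-0.47 ± 0.23). SNRPB, a core protein of the spliceosomal small nuclear ribonucleoproteins and the brightest of the 20p members, gave 3070.4, 2269 and 2513 against 3658, 3151 and 3052. Its TAT-2 replicate 1 lay just above vector replicate 3, while each number taken alone was lower (-0.33 ± 0.12). ACSS1, a mitochondrial acetyl-CoA synthetase and the dimmest of the 20p members, gave 25.4, 22.8 and 17.6 against 34.3, 32.5 and 36.8, with no overlap (-0.42 ± 0.20).

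The 2 members of 20p whose replicate numbers disagreed in sign were CDS2 and TMX4. CDS2, which makes the CDP-diacylglycerol used for inositol lipids, gave 154, 148 and 163 on the TAT-2 arrays and 142, 193 and 172 on the vector arrays. The groups overlapped and the difference was -0.10 ± 0.23. Of its further probe sets 3 had the opposite sign, at 0.05, 0.06 and 0.11, and 1 was at -0.19. TMX4, a thioredoxin-related membrane protein of the endoplasmic reticulum, gave 53.1, 41.3 and 36.2 against 30.9, 45.3 and 40.2. It was higher in replicate 1 (0.56) and lower in replicates 2 (-0.10) and 3 (-0.11), and its mean was 0.12 ± 0.38. Without replicate 1 of both groups it was at -0.10, and all 30 measured 20p members were then lower.

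**Figure D2:**
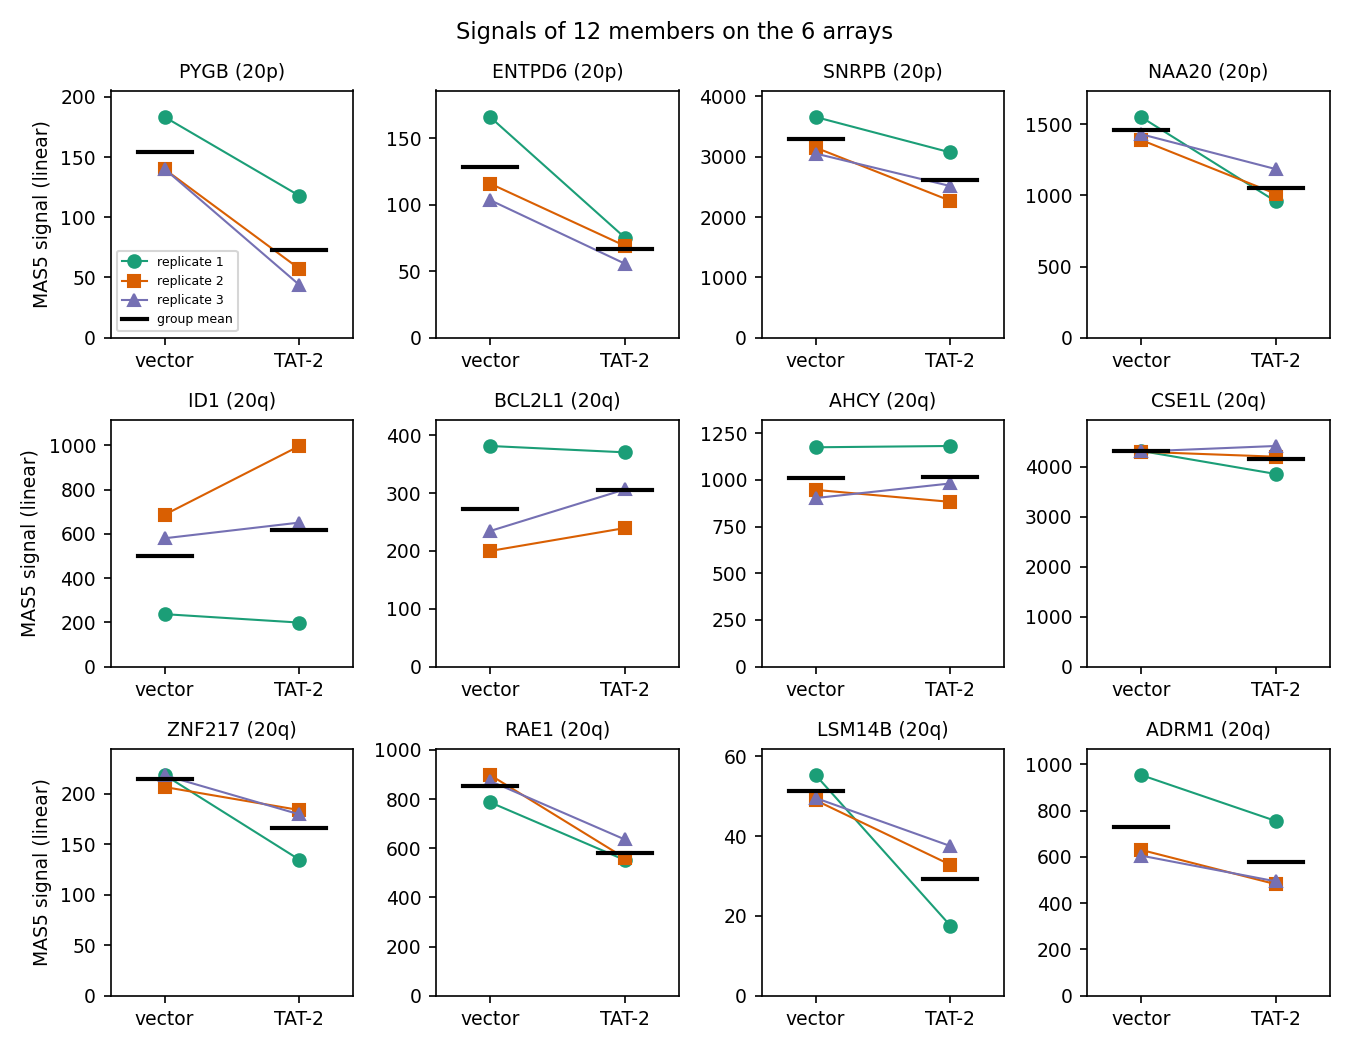
MAS5 signals (linear, from 0) of 12 members on the vector and TAT-2 arrays; lines join arrays of the same replicate number and black bars are group means (n = 3 each). Lines of PYGB, ENTPD6, SNRPB, NAA20, ZNF217, RAE1, LSM14B and ADRM1 slope down in all 3 numbers, and those of ID1, BCL2L1, AHCY and CSE1L do not share a direction.

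By role, the lower signals on 20p were spread over unrelated functions. All 5 measured members of RNA processing and translation were lower in each replicate number, with differences from -0.42 to -0.33. They were SNRPB, its relative SNRPB2 of the U2 particle, the nuclear exoribonuclease XRN2, the tRNA methyltransferase subunit TRMT6 and DTD1, which removes D-amino acids from tRNA. Of 11 metabolic genes 10 were lower in each number and the eleventh was CDS2, with a median of -0.34. Those not yet named were IDH3B of the citrate cycle, ITPA, which clears inosine triphosphate, PANK2 of coenzyme A synthesis, the spermine oxidase SMOX, the cardiolipin synthase CRLS1 and GPCPD1, which breaks down glycerophosphocholine. All 3 traffic genes (TBC1D20, SEC23B and the p97 cofactor NSFL1C) were lower in each number, at -0.47 to -0.28. So were the signalling genes CSNK2A1, RBCK1 and MAVS, the mitochondrial adaptor of RNA sensing, at -0.37 to -0.29. Among genes grouped under protein folding and turnover, FKBP1A, the rapamycin-binding prolyl isomerase, and the chaperonin-like MKKS were lower with NAA20, and TMX4 was not. The RNA polymerase III subunit POLR3F and the zinc finger factor GZF1 were at -0.42 and -0.45, and RBBP9, a serine hydrolase that binds the retinoblastoma protein, at -0.27.

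The median difference was similar in dim and bright 20p members, while its spread was not. The 15 dimmer members had a median of -0.34 and ran from -1.02 to 0.12, with PYGB, ENTPD6, ANKEF1 and TMX4 among them. The 15 brighter ones had a median of -0.37 and ran from -0.47 to -0.29. NSFL1C, at 556, 605 and 586 on the TAT-2 arrays and 689, 772 and 741 on the vector arrays, had differences of -0.30, -0.34 and -0.33. IDH3B, at 676, 601 and 564 against 855, 743 and 705, had -0.33, -0.30 and -0.31. Both genes stayed near the arm's median in every number.

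Immediately across the centromere, members of 20q did not show that shift. ID1, an inhibitor of basic helix-loop-helix factors, gave 199, 997 and 651 on the TAT-2 arrays and 237, 687 and 580.2 on the vector arrays. Replicate 1 was low in both groups, the groups overlapped, and the difference was 0.15 ± 0.38, lower in replicate 1 and higher in replicates 2 and 3. It turned to -0.32 without TAT-2 replicate 2, to -0.02 without TAT-2 replicate 3 and to -0.30 without vector replicate 1. Each of these settings leaves the replicate numbers unmatched, so the low replicate 1 weighs unequally on the 2 groups. Within replicate numbers 1, 2 and 3 the differences were -0.23, 0.53 and 0.16. BCL2L1, which encodes the survival protein BCL-XL, gave 370.3, 239 and 306 against 381, 200 (199.9) and 234, a difference of 0.19 ± 0.21 with overlapping groups. MAPRE1, a microtubule plus-end protein, and AHCY, which hydrolyses S-adenosylhomocysteine, were at -0.08 ± 0.14 and 0.01 ± 0.11. AHCY gave 1182, 883 and 981 against 1175, 947 and 903, so its groups lay over the same range.

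From MAPRE1 to PTPN1 most of the 20q members stayed within 0.2 of no difference. CSE1L, the exporter of importin alpha and the brightest of the 20q members, gave 3859, 4205 and 4419 on the TAT-2 arrays and 4320.3, 4304 and 4309 on the vector arrays. Only TAT-2 replicate 1 was clearly below the rest, and the difference was -0.05 ± 0.10. PLCG1, the phospholipase C of growth factor receptors, was the only member higher in all 3 numbers, by 0.06, 0.06 and 0.03. YWHAB, a 14-3-3 adaptor, the topoisomerase TOP1, the splicing factor RBM39 and the helicase DDX27 were lower in each number by small amounts, with means of -0.08, -0.13, -0.14 and -0.12. The other tested probe set of TOP1 was at -0.49 and that of DDX27 at -0.28. Those of YWHAB and RBM39 were at -0.23 to -0.04. STAU1, a binder of double-stranded RNA, and the phosphatase PTPN1 differed in sign between numbers, at -0.10 ± 0.14 and -0.20 ± 0.42. PTPN1 gave 116, 117 and 134 against 178, 148 and 108, lower in replicates 1 and 2 and higher in replicate 3. EIF6, a factor of ribosomal subunit assembly, was the member of this stretch whose groups did not overlap, at 1667, 1566 and 1663 against 2097, 1931 and 1801 (-0.25 ± 0.12). CTNNBL1, a spliceosome-associated protein, had a larger mean difference (-0.31 ± 0.17) but overlapping groups, at 197, 163 and 232 against 285, 186 and 280 (279.6).

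From ZNF217 to the distal end, 20q members were again lower. ZNF217, a transcription factor, gave 135, 184 and 180 (179.8) on the TAT-2 arrays and 219, 207 and 219 on the vector arrays, with no overlap and a difference of -0.35 ± 0.25. PFDN4, a prefoldin subunit that helps fold actin and tubulin, gave 1027, 846 and 1064 against 1353, 1223 and 1243 (-0.38 ± 0.15). RAE1, a messenger RNA export and nuclear pore protein, gave 552, 560.1 and 635 against 787, 898 and 874, with differences of -0.50, -0.67 and -0.45. Both had every TAT-2 array below every vector array. RAB22A, a GTPase of early endosomes, gave 386, 273 and 283 against 504, 347 and 359. Its groups overlapped because replicate 1 was high in both, while its differences within numbers were nearly equal, at -0.37, -0.33 and -0.32.

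The remaining distal members had values of the same order. LSM14B, an RNA-binding protein of messenger RNA storage granules, gave 17.6, 32.8 and 37.5 on the TAT-2 arrays and 55.3, 49.0 and 49.6 on the vector arrays, with the largest gap in replicate 1 (-1.09) and a mean of -0.60 ± 0.43. OSBPL2, a sterol-binding protein, gave 138, 158 and 160.3 against 185, 201 and 194 (-0.32 ± 0.07, no overlap). ADRM1, a ubiquitin receptor of the proteasome and the most distal member, gave 756, 482 and 494 against 955, 631 and 606. Its groups overlapped through the high replicate 1 of both, with differences of -0.33, -0.38 and -0.28. VAPB, a membrane contact protein of the endoplasmic reticulum, the SNARE protein STX16 and the chromatin factor SS18L1 were at -0.30, -0.33 and -0.32, lower in each number. RBM38, an RNA-binding target of p53 and the dimmest of the 20q members, was the exception, at 31.9, 23.8 and 13.9 against 30.8, 25.1 and 23.0 (-0.13 ± 0.22).

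The 25 members of 20q had a median of -0.20, and 16 were lower in all 3 numbers. In 8 of them the groups did not overlap (7.83% of all genes tested in that direction), and the blocked limma fit called 5 lower (3.46% of all) and none higher, with no call left without the intensity trend. Over the 13 members that still had a probe set when _x_at and _s_at probe sets were left out, the median was -0.33, and that of the 26 such 20p members was also -0.33. Split at ZNF217, a point chosen after the values were seen, the 14 members before it had a median of -0.09 and the 11 from it on -0.33. Of the 14, 6 were lower in every number and 1 did not overlap, and of the 11 these counts were 10 and 7, where all genes tested gave 21.1% and 7.83%. Medians by number before ZNF217 were -0.15, -0.13 and 0.03, and from it on -0.39, -0.33 and -0.29. The other 148 tested genes of 20q before ZNF217 had a median of -0.09 and the 64 after it -0.30.

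**Figure D3:**
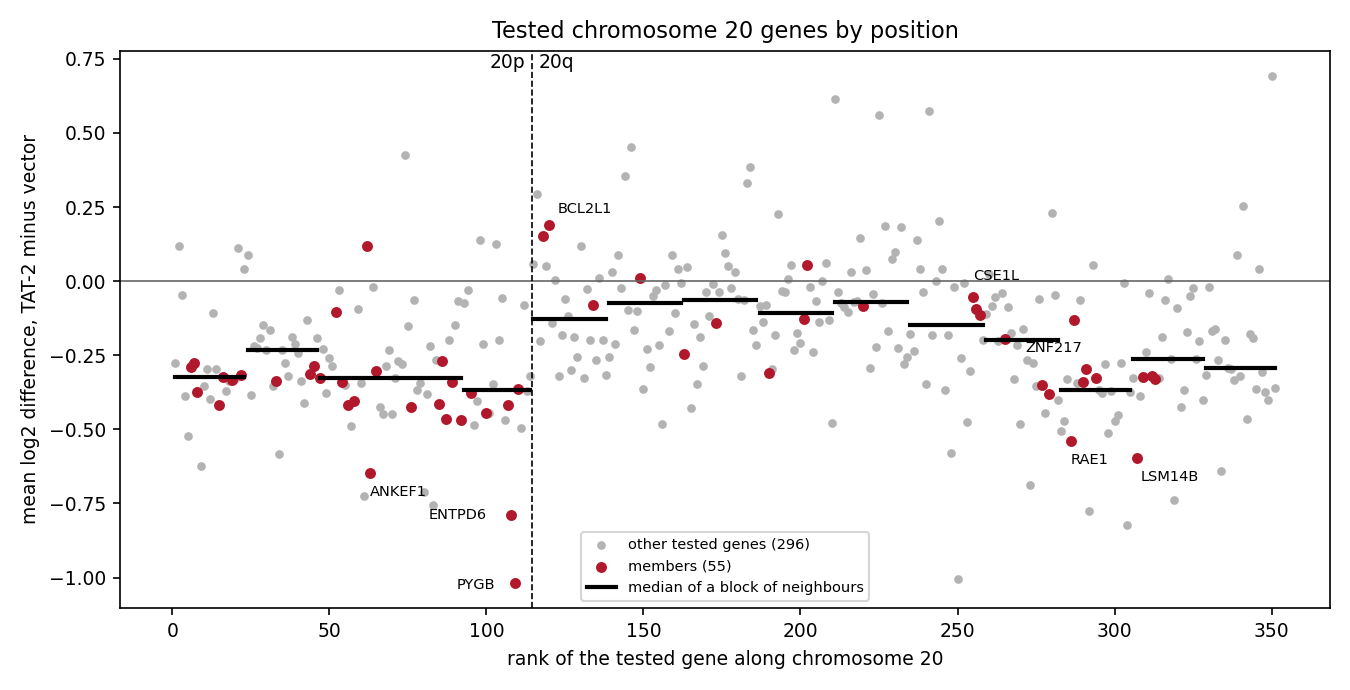
Mean log2 difference (TAT-2 minus vector, 3 arrays each) of the 351 tested chromosome 20 genes by rank along the chromosome; red points are the 55 members, grey points the other 296 genes, black bars medians of blocks of 22 to 24 neighbours, and the dashed line parts the arms. Bars lie between -0.37 and -0.23 on 20p, rise to between -0.13 and -0.06 over the first 5 blocks of 20q and return to between -0.37 and -0.26 over its last 3.

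The genes of chromosome 20 that are no members gave the same outline. On 20p the 84 others had a median of -0.28, with 77 lower on average and 54 lower in all 3 numbers (64.3%). On 20q the 212 others had a median of -0.17, with 165 lower and 90 lower in all 3 numbers (42.5%). The tested genes of each arm were divided in gene order into 5 blocks on 20p and 10 on 20q. Block medians of 20p were -0.33, -0.23, -0.33, -0.33 and -0.37 from the tip to the centromere. Those of 20q were -0.13, -0.07, -0.06, -0.11, -0.07, -0.15, -0.20, -0.37, -0.26 and -0.29 from the centromere outward. The block from CSTF1 to MIR646HG, which holds RAE1, RBM38, RAB22A, VAPB and STX16, was at -0.37, -0.44 and -0.35 in replicates 1, 2 and 3. The longest unbroken run of tested neighbours with a mean below 0 held 37 genes, from VPS16 to BMP2 on 20p, 8 of them members. Runs of 23 genes followed from KIF16B to THBD on 20p and from STX16 to CABLES2 on 20q.

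**Figure D4:**
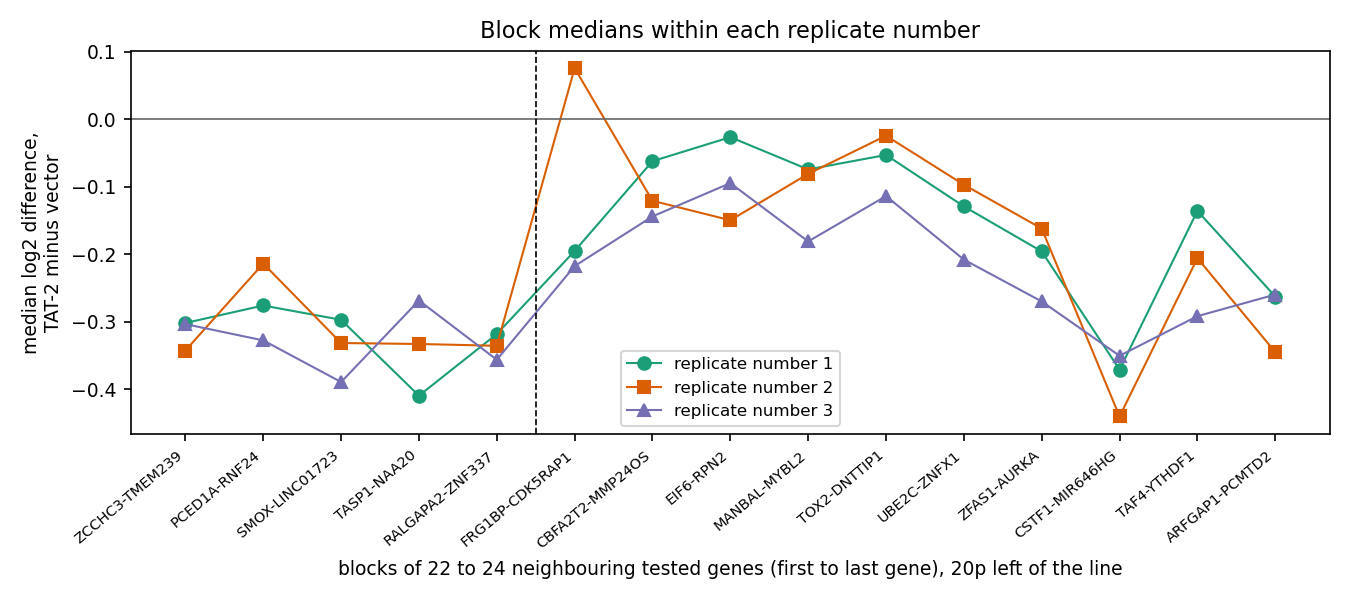
Median log2 difference (TAT-2 minus vector) within replicate numbers 1, 2 and 3 for 15 blocks of 22 to 24 neighbouring tested genes, from the tip of 20p at the left to the end of 20q at the right. All 3 lines lie below -0.2 on 20p; the block next to the centromere on 20q is at -0.20, 0.08 and -0.22, and is the only block with a median above 0 in any number.

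Of the non-members, the greatest differences on 20p were at PET117, an assembly factor of cytochrome oxidase (-0.76 ± 0.18), BMP2, a bone morphogenetic protein (-0.72 ± 0.14), the sorting nexin SNX5 (-0.71 ± 0.33), the sulfiredoxin SRXN1 (-0.62 ± 0.10) and the transporter SLC4A11 (-0.58 ± 0.02). None of these overlapped between groups. FLRT3, a membrane protein that binds latrophilins, was the only gene of 20p higher in all 3 numbers (0.42 ± 0.11), with overlapping groups. LINC00656, CST4, NRSN2-AS1 and TMC2 had means of 0.11 to 0.14 with mixed signs, from signals of 18.2 to 22.6 near the filter. On 20q SLC13A3, a dicarboxylate transporter, gave 13.4 ± 7.26 against 42.0 ± 5.28 (SD, n = 3 each; -1.01), and LINC02910 was at -0.82, both without overlap. APCDD1L (-0.78), SLCO4A1 (-0.74) and ATP9A (-0.69) were lower with overlapping groups. APCDD1L gave 9.17 ± 8.77 against 28.5 ± 20.4 (SD). It and SLC13A3 had TAT-2 means below the filter signal of 15.2 and passed the filter through the vector arrays. TOX2, a high mobility group factor, gave 84.7 ± 17.1 against 49.7 ± 9.67 (0.61), and RALY-AS1 was at 0.45, both higher without overlap. MYT1 (0.69), PLTP (0.57) and WFDC5 (0.56) had higher means with overlapping groups. PLTP was higher in all 3 numbers. MYT1, at 29.8 ± 7.92 against 14.2 ± 14.8 (SD), and WFDC5, at 26.0 ± 14.1 against 11.7 ± 3.96, had mixed signs. The vector means of MYT1 and WFDC5 lay below the filter signal.

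Genes of chromosome 20 with known roles in carcinoma were listed by name, with earlier results of these data known, so their counts are a description. On 20p all 9 tested of 10 were lower in all 3 numbers, where 71.9% of all tested 20p genes and 21.1% of all genes tested were. Their median was -0.41. The blocked limma fit called 8 lower (39.5% of tested 20p genes and 3.46% of all genes tested), none of them without the intensity trend. TRIB3, a pseudokinase of the stress response, gave 235 ± 21.3 against 343 ± 17.8 (-0.52 ± 0.13). GINS1 and MCM8 of DNA replication were at -0.49 each, and JAG1, a Notch ligand, gave 939 ± 42.0 against 1287 ± 48.2 (-0.45 ± 0.07). On 20q 11 of 20 tested of 22 were lower in all 3 numbers, where 44.7% of all tested 20q genes were, and none was higher in all. Their median was -0.20, and 4 were called lower with the block and its trend (13.9% of tested 20q genes). MYBL2, a cell cycle transcription factor (-0.48), the adaptor TPD52L2 (-0.47), the vitamin D hydroxylase CYP24A1 (-0.45) and the mitotic kinase AURKA (-0.40) had the greatest differences. AURKA gave 1043, 1036 and 1199 against 1294, 1470.2 and 1582, with no overlap.

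Chromosome 20 had the lowest median of the 23 chromosomes with at least 100 tested genes, at -0.21 over its 351 genes. The next was chromosome 18 at -0.05 and the highest chromosome 10 at 0.14, followed by chromosomes 5 (0.08) and 22 (0.06). On chromosome 20 53.6% of genes were lower in all 3 numbers, on chromosome 18 34.9%, and on the other chromosomes together 20.2%. All comparisons use the same 6 arrays, and no test of the difference between chromosomes was made. The members were taken up with this contrast already known. The rank of their chromosome therefore describes the data and supports nothing further.

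**Figure D5:**
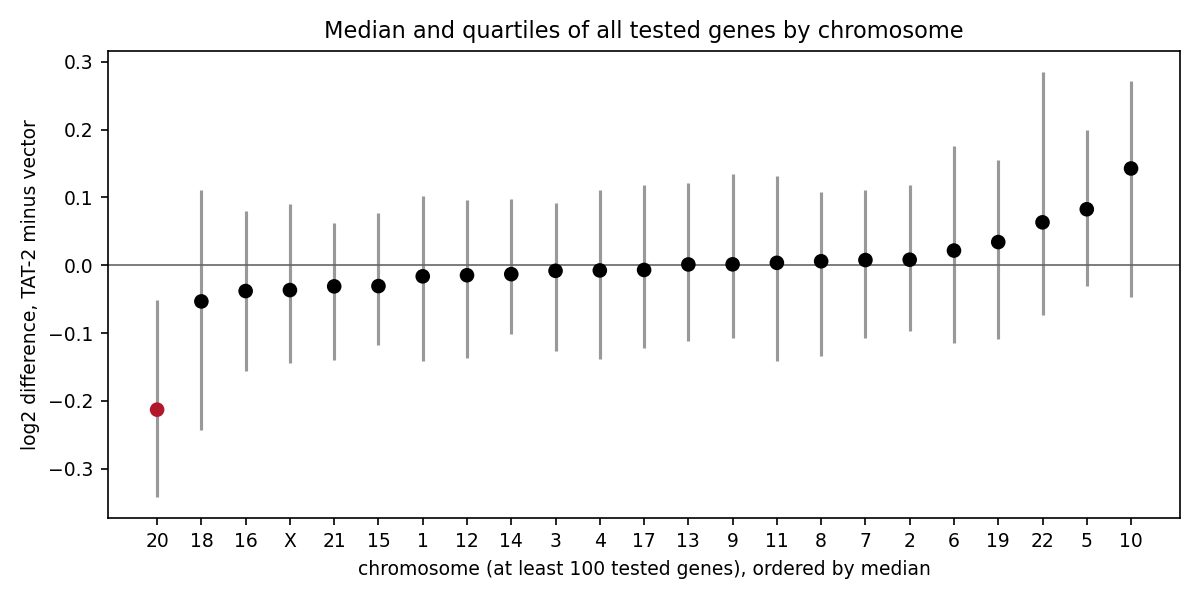
Median (point) and quartiles (bar) of the log2 difference, TAT-2 minus vector, over all tested genes of each of 23 chromosomes, in order of the median. Chromosome 20, in red, is at -0.21 and its upper quartile of -0.05 lies below 0, which holds for no other chromosome.

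Of the 55 members 32 were read by a probe set ending in _x_at or _s_at, which can also read related sequences. Other probe sets of the members were read from the same RNA. The 55 genes had 98 further probe sets, of which 71 passed the filter and 62 of these were lower on the TAT-2 arrays. On 20p 38 of 45 were lower, with a median of -0.31, and on 20q 24 of 26, with a median of -0.17. Of these 71, 9 had a sign opposed to their gene's brightest probe set. Of the 9, 3 belonged to CDS2 and 1 each to RBCK1, FKBP1A, PANK2, BCL2L1, PLCG1 and RAB22A. The opposed probe set of FKBP1A was at 0.10, where its brightest, at 2301, 1626 and 1609 against 3002, 2316 and 2074, was at -0.42. Averaged over all their probe sets, RBCK1 was at -0.13 and PANK2 at -0.06, and without _x_at and _s_at probe sets PFDN4 was at -0.59 and VAPB at -0.65.

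Some members' means also moved when 1 array of replicate 1 was left out, which leaves replicate 1 in 1 group only. Where replicate 1 stood apart in both groups, such a shift also holds the level of that replicate. Within replicate numbers ADRM1 was at -0.33, -0.38 and -0.28, RAB22A at -0.37, -0.33 and -0.32, and FKBP1A at -0.38, -0.51 and -0.36. LSM14B, at -1.09, -0.41 and -0.29, differed most in replicate 1 itself. Without vector replicate 1 the difference was -0.22 for ABHD12, -0.13 for ADRM1, -0.27 for FKBP1A, -0.18 for RAB22A, -0.12 for TBC1D20 and -0.14 for VAPB. Without TAT-2 replicate 1 it was -0.40 for LSM14B, -0.22 for ZNF217, -0.17 for PANK2, -0.16 for RBCK1 and -0.54 for ADRM1. None of these changed sign.

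The contrast of replicate 1 with replicates 2 and 3, with group as a further term, played no part in choosing the members. It was tested with limma. Replicate 1 was set against the rest because it stood apart on these same arrays, and the p-values do not allow for that choice. The fit called 17 of the 55 members, 12 higher on replicate 1 (21.8%) and 5 lower. Of all genes tested 25.0% were called (13.2% higher, 11.9% lower). The median difference of the 55 members was 0.10, with 0.17 on 20p and 0.03 on 20q, against 0.01 over all genes tested. The tested genes of chromosome 20 that are no members had the reverse order, with 0.05 on 20p and 0.11 on 20q. Block medians in this contrast ran from -0.03 to 0.29 along the chromosome. ID1 was lower on replicate 1 by the widest margin, with a log2 difference of -1.64 ± 0.16 (SE; limma adjusted p = 0.000103). ADRM1 was higher by 0.61 ± 0.07 (adjusted p = 0.00019), FKBP1A by 0.48 ± 0.07 (adjusted p = 0.000617) and RAB22A by 0.47 ± 0.08 (adjusted p = 0.00153). VAPB (0.39, adjusted p = 0.00332) and BCL2L1 (0.60, adjusted p = 0.00484) were also called higher, and both lost the call without vector replicate 1, where they were at 0.32 and 0.43. VAPB had the opposite value, -0.08, when _x_at and _s_at probe sets were left out. RBM39 (-0.27, adjusted p = 0.0118), RBCK1 (-0.37, adjusted p = 0.0118), PANK2 (-0.32, adjusted p = 0.0224) and SNRPB2 (-0.20, adjusted p = 0.04) were called lower. These 4 lost the call when either replicate 1 array was left out, which leaves 1 array on that side, assumed to vary like the rest. Their differences were then -0.29 and -0.26 (RBM39), -0.34 and -0.40 (RBCK1), -0.29 and -0.35 (PANK2) and -0.15 and -0.25 (SNRPB2) without TAT-2 and vector replicate 1. PANK2 lost it also without vector replicate 2, and SNRPB2 without TAT-2 replicate 2 or vector replicate 2 or 3. Averaged over its probe sets, RBCK1 was at 0.02.

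Per array, the shift of 20p was seen on both sides of the replicate 1 gap. The median deviation of the 20p members from their own means over 6 arrays was 0.29, 0.16 and 0.14 on vector replicates 1, 2 and 3, and -0.06, -0.21 and -0.19 on the TAT-2 arrays. For the 11 members of 20q from ZNF217 on it was 0.22, 0.13 and 0.11, and -0.11, -0.16 and -0.21. For the 14 members of 20q before ZNF217 it was 0.07, 0.05 and 0.02, and -0.13, -0.10 and 0.03. Every TAT-2 array lay below every vector array in the first 2 sets and not in the last. The members were chosen on this contrast and split after the values were seen, so this separation is a description. For 20p genes that are no members it was 0.18, 0.12 and 0.15, and -0.09, -0.15 and -0.15. For such genes of 20q it was 0.15, 0.04 and 0.08, and 0.04, -0.11 and -0.13. Over all genes tested it ran from -0.01 to 0.01.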

How the data were processed

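Expression in HSC-3 cells was measured on 6 arrays, 3 per group. The deposited table holds intensities on a linear scale, and the submitters' processing notes name MAS5 without a version. The mean between percentiles 2 and 98 was 99.98 for all 6 arrays, and no further scaling was applied to what the authors deposited. Array medians were 14.8 to 17.6. Of 54675 probe sets, 62 are controls, 41097 had 1 gene symbol, 1801 several and 11777 none, and 41043 were matched by gene identifier to a gene table of assembly GRCh38.p14. That table gave chromosome and gene order, and the arms were parted at the widest stretch without a gene start.

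Signals were taken as log2(signal + 16), and probe sets were tested where the mean reached the median of all (4.96, a signal of 15.2), which left 27307. The fit used limma 3.58.1 in R 4.3.3 (lmFit and trended eBayes) on group alone, with Benjamini-Hochberg adjustment at 0.05, and was checked on simulated data. As a pairing check, arrays sharing a number were compared after subtracting group means: r was 0.64 (number 1), 0.39 (number 2) and 0.25 (number 3), all over 0.1, so a blocked fit is given too. The numbers come from the sample titles, which do not say what they stand for. Differently numbered arrays reached 0.32.

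The members and lists were chosen with earlier results of these data known. Genes given by array are, in each arm, the 5 of greatest and 2 of smallest difference, 2 at each end, the brightest and the dimmest, those whose numbers disagree in sign and, for replicate 1, 5 per direction by p. Of non-members, 5 per direction and arm are named. Further members are named for completeness.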

Additional observations from a re-analysis of the deposited data

How the results depend on the processing

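The medians of both arms kept their sign under every alternative tried (pseudocounts of 1 and 64, no filter or one at percentile 70, quantile normalization, equal array medians, means over a gene's probe sets, probe sets ending in _x_at or _s_at left out, each array left out in turn and, added after the data were seen, both replicate 1 arrays left out). The median over all genes tested was between -0.01 and 0.01. The 20p member median was -0.39 with a pseudocount of 1, -0.31 with 64 and -0.33 without _x_at and _s_at probe sets, and ranged from -0.40 to -0.32 when each array was left out. The 20q member median was -0.24, -0.15 and -0.33 under the same 3 settings, and -0.22 to -0.17 with each array left out. Without _x_at and _s_at probe sets 13 members still had a probe set, most of them from ZNF217 on (11 lower, 2 higher). On 20p 2 of 26 members were then higher, and 0 with the filter at percentile 70 or without replicate 1 of both groups.

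The median of all 20p genes was -0.34 with the filter at percentile 70, -0.26 over a gene's probe sets, -0.21 without a filter, -0.28 without _x_at and _s_at probe sets, -0.35 and -0.22 with pseudocounts of 1 and 64, -0.31 with quantile normalization and -0.33 to -0.28 with each array left out. That of all 20q genes was -0.10 without a filter, -0.11 with a pseudocount of 64, and -0.19 to -0.12 with each array left out. Of 468 recomputed differences of named members 11 had the opposite sign, at AHCY, CSE1L, ID1, PTPN1, PYGB, RBM38 and TMX4, which, PYGB apart, lie within 0.2 of 0.

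Over all genes the TAT-2 comparison called 7 genes, and 846 with the replicate block (425 higher, 421 lower), of which 0 were left without an intensity trend (2042 at an unadjusted p under 0.05). It called 20 with equal array medians, 21 over a gene's probe sets, 31 without _x_at and _s_at probe sets, 11 with quantile normalization, 4 without the trend, 196 without replicate 1 of both groups, and 0 to 22 with each array left out, 0 in limma without replicate 2 or 3 of either group (779 to 898 at an unadjusted p under 0.05). The contrast of replicate 1 called 3041 genes, 1576 without the trend, 1817 without _x_at and _s_at probe sets and 696 (without TAT-2 replicate 1) to 3122 with each array left out. RBCK1 turned to 0.0196 over its probe sets and VAPB to -0.0789 without _x_at and _s_at probe sets in that contrast. The causes of these changes were not tested, and the number of arrays limits the precision of all values.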
